A study of Mus musculus with 2 samples.

Results

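The transcripts of 4 genes, Star, Tspo, Dbi and Acbd3, were described in 2 long-read RNA libraries of mouse adrenal gland. The genes were taken by name, with every transcript model assigned to them, and they were 4 of the 18177 genes with reads. They held 77 of the 112323 models listed for replicate 1 and 90 of the 112820 models listed for replicate 2. Both libraries came from adrenal glands of male B6CASTF1/J mice, an F1 hybrid strain, aged 14 days, with no treatment named. They are biological replicates 1 and 2 of a single group, so no condition was compared and every test below compares the libraries with each other. The labels name a set of 3 males and give both libraries the same donor, while the biosample labels carry different numbers, so it is not known whether the libraries come from separate animals. The p-values cover counting error only.

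Cortical cells of the adrenal gland make steroid hormones from cholesterol, and the first enzyme of that route sits in the inner mitochondrial membrane. Cholesterol crosses from the outer to the inner membrane slowly on its own. Star, the steroidogenic acute regulatory protein, carries the START lipid-binding fold and is the member whose loss severely impairs steroid synthesis. Tspo is an outer-membrane cholesterol-binding protein, Dbi is the acyl-CoA binding protein that also binds Tspo, and Acbd3 is a Golgi protein with an acyl-CoA binding domain that binds both Tspo and a regulatory subunit of protein kinase A. Star messages with short and long 3′ untranslated regions are known from mouse and rat steroid-making cells.

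Replicate 1 had 964815 reads and replicate 2 had 985101 reads after the ERCC spike-ins, which are synthetic RNAs, were left out. Levels are given in CPM, read counts scaled to a common total of these reads. A long read stands for a single molecule, so CPM was not divided by length, and whether short molecules were captured more often was not tested. For a gene at 0 reads the limit is 3 reads, or 3.11 CPM (replicate 1) and 3.05 CPM (replicate 2). The 7 adrenal cortex markers summed to 35813 CPM (replicate 1) and 35490 CPM (replicate 2), but did not move together. Cyp21a1, Cyp11b1 and Scarb1 were called higher in replicate 1 (ratios 1.16, 1.28 and 1.55) and Cyp11a1 higher in replicate 2 (ratio 0.859). Counted from known, that is annotated, models only, Cyp11a1 was not called (ratio 1.02). Hepatocyte markers summed to 754 CPM (replicate 1) and 15655 CPM (replicate 2), with Alb, serum albumin, at 226 and 4392 CPM, and all 8 passed the test as higher in replicate 2. Macrophage and immune markers summed to 617 CPM (replicate 1) and 216 CPM (replicate 2), with Cd74 and Lyz2 called higher in replicate 1, and endothelial markers to 218 and 129 CPM, with Tie1 called higher in replicate 1. Adipose markers summed to 11963 CPM (replicate 1) and 12059 CPM (replicate 2), with Ucp1 of brown fat at 1949 and 2065 CPM and none of the 6 called. The part of these other cell types in the differences below was not tested. In whole tissue, fewer cells of a type and less RNA per cell cannot be told apart.

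The sequences below are the places in Star and Dbi on which the results turn, copied from the GENCODE M21 transcripts on mm10 and written 5′ to 3′. The first set joins 2 neighbouring exons of Star-201. Capitals mark bases left out where a model placed the junction farther into the later exon. All 3 removed stretches end in AG, the letters that close an intron. Shifted donors are not printed, and whether sequencing or alignment error placed any of these rare junctions was not tested.
Star exon 3 to exon 4, chr8:25809920-25810959, plus strand: aaggaaagccagcagGAGaacggggacgaa
Star exon 4 to exon 5, chr8:25811089-25811227, plus strand: gtcaaggagatcaagGTCCTGCAGaggatt
Star exon 5 to exon 6, chr8:25811383-25811804, plus strand: gagtggtgtcatcagAGctgaacacggccc

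The second set is the site before each main end of the Star models, with the poly(A) signal AATAAA or its variant ATTAAA in capitals. The signals mark where a transcript is cut and tailed. The share of protein-coding transcripts of the annotation with AATAAA in their last 50 bases was 40.6%, and with ATTAAA 11.9% (58787 transcripts).
Star end in replicate 1, chr8:25813385-25813414, plus strand: atcccatgacAATAAAgaacatacatgcac
Star end in replicate 2, chr8:25813383-25813412, plus strand: taatcccatgacAATAAAgaacatacatgc
Star end in both libraries, chr8:25815270-25815299, plus strand: tatattttAATAAAagcagttgtcactggc
Star annotated end, chr8:25815953-25815982, plus strand: aagtatATTAAAttgtgttaatagtcattc

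The next stretch shows a Star end without either signal in the 50 bases before it. The last base before the end is the 10th letter, and capitals mark each A in the 20 bases that follow it.
Star end 1583 bases after the coding part, chr8:25814457-25814486, plus strand: aatgctgctcAAAAAcAtAAAAAAAtAAAA

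The last set gives coding bases that some models lack or begin with. Models that end inside intron 6 of Star lack the whole coding part of exon 7. In the Dbi-201 stretch, capitals mark the start codon and the in-frame ATG at base 73 of its coding sequence, codon 25, where the annotated coding sequence of Dbi-202 begins.
Star exon 7 coding part, chr8:25812773-25812883, plus strand: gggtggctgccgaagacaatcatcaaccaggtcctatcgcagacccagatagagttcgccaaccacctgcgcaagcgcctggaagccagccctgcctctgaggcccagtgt
Dbi-201 coding start, exons 1 and 2 joined, chr1:120119938-120120953, minus strand: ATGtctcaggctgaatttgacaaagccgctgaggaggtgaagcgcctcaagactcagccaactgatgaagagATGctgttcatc

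Star was the most abundant of the 4 genes. Its locus is chr8:25806555-25815982 on the plus strand, and its reads were 4829 in replicate 1 and 4617 in replicate 2. These reads gave 5005 CPM (replicate 1) and 4687 CPM (replicate 2), or 4846 ± 225 CPM (SD, n = 2), which ranked 8 of all genes. Replicate 1 was slightly the higher, with a ratio of replicate 1 over replicate 2 of 1.07 (95% exact interval 1.03 to 1.11), and the exact binomial test passed at an adjusted p of 0.0206. Other scalings moved Star both ways. The call was lost and the direction turned with TMM scaling (ratio 0.956, adjusted p = 0.213) and DESeq2 size factors (ratio 0.986, adjusted p = 0.859), while ERCC scaling gave a ratio of 1.11 that passed (adjusted p = 9.02e-06). It was 1.05 (adjusted p = 0.115) when the hepatocyte markers were left out of the totals.

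Dbi stood next, at chr1:120113280-120121078 on the minus strand. Its reads were 1148 in replicate 1 and 1677 in replicate 2, or 1190 CPM and 1702 CPM (1446 ± 362 CPM, SD, n = 2; rank 58). Replicate 1 was the lower library for Dbi. The ratio of replicate 1 over replicate 2 was 0.699 (95% exact interval 0.648 to 0.754), and the exact binomial test passed at an adjusted p of 6.84e-19. The hepatocyte markers were also higher in replicate 2, and their part in the Dbi difference was not tested. With those markers left out of the totals the ratio was 0.689. That setting changes the library sizes only and removes no Dbi reads, so it cannot show which cells they came from.

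Tspo, at chr15:83563592-83574203 on the plus strand, had 448 reads in replicate 1 and 505 reads in replicate 2. These were 464 CPM and 513 CPM (488 ± 34.2 CPM, SD, n = 2; rank 279). The libraries lay close together, with a ratio of replicate 1 over replicate 2 of 0.906 (95% exact interval 0.796 to 1.03; adjusted p = 0.430 by the exact binomial test). With TMM scaling the ratio was 0.811 and passed (adjusted p = 0.0201).

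Acbd3, at chr1:180726043-180754204 on the plus strand, was the least abundant, with 63 reads in replicate 1 and 44 reads in replicate 2. These reads gave 65.3 CPM (replicate 1) and 44.7 CPM (replicate 2), or 55.0 ± 14.6 CPM (SD, n = 2; rank 3362). The ratio of replicate 1 over replicate 2 was 1.46, but its 95% exact interval ran from 0.979 to 2.20 and the test was not passed (adjusted p = 0.265). A difference of that size was not resolved at this depth.

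In order of level the genes were Star, Dbi, Tspo and Acbd3, and no neighbours in that order overlapped in either library, as the bars of level by library show. Across all 11094 genes tested, 9.17% passed the level test, 4.81% as higher in replicate 1 and 4.35% as higher in replicate 2. Of the 4 members, 1 was called in each direction. The median log2 ratio of all tested genes was 0.15 with totals as library sizes, -0.01 with TMM scaling, 0.04 with DESeq2 size factors and 0.21 with ERCC scaling. The log2 ratio of Star was 0.09 and lay below that median, while that of Dbi was -0.52. The share of calls that were higher in replicate 1 was 52.5% with totals, 23.3% with TMM scaling, 29.99% with DESeq2 size factors and 62.7% with ERCC scaling.

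**Figure D1:**
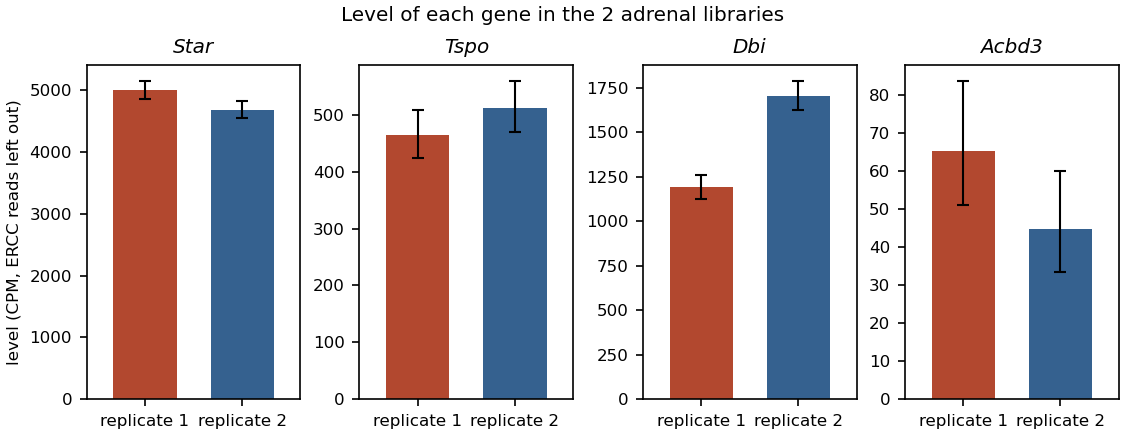
Level in CPM of Star, Tspo, Dbi and Acbd3 in replicate 1 (left bar) and replicate 2 (right bar), with 95% Wilson counting intervals and a separate axis for each gene. Star stands at 5005 and 4687 CPM and Dbi at 1190 and 1702 CPM, with replicate 1 lower for Dbi.

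The genes nearest to each member in level, by the summed difference in log2(CPM + 1) over the 2 libraries, were looked up. Nearest to Star were Hsd3b1 at 4790 CPM (replicate 1) and 4743 CPM (replicate 2), Cox4i1 at 5178 CPM and 5254 CPM, and Cyp11b1 at 5847 CPM and 4572 CPM. Nearest to Tspo were Ndufb4, Rps29 and Ndufb6, nearest to Dbi were Rpl41, Chchd10 and Cox6a1, and nearest to Acbd3 were Ehbp1l1, Obsl1 and Cfap36. With 2 libraries, closeness in level is a description of abundance only.

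Each member was carried by a single annotated splice form. Star-201, with 7 exons and a coding part of 852 bases, held 3652 of 3714 full-splice reads in replicate 1 (98.3%, 95% Wilson interval 97.9% to 98.7%) and 3277 of 3338 in replicate 2 (98.2%, 97.7% to 98.6%). Full-splice reads are those whose whole intron chain is annotated or new, as opposed to a part of an annotated chain. Tspo-201 held 414 of 421 such reads in replicate 1 and 441 of 449 in replicate 2, or 98.3% and 98.2%. Dbi-201 held 1131 of 1140 reads in replicate 1 and 1634 of 1660 in replicate 2, or 99.2% and 98.4%. The annotated 8-exon form of Acbd3 held 58 of 62 reads in replicate 1 and 41 of 42 in replicate 2, or 93.5% and 97.6%. Fisher's exact test called none of the 4 members (lowest unadjusted p = 0.0830, for Dbi), against 0.125% of the 4817 genes tested. The median share of the top form over those genes was 87.6% in replicate 1 and 87.5% in replicate 2. Genes with a single full-splice form were not tested and are not in these medians.

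The other annotated transcripts were scarce. Star-202, which begins farther upstream and ends in exon 5, had 0 reads in both libraries, as had Tspo-202. Dbi-202 had 3 reads in replicate 1 and 10 reads in replicate 2, Dbi-203 had 3 and 5, and Dbi-205 had 2 and 2. Dbi-207 had 0 reads in replicate 1 and 2 reads in replicate 2. In that form an alternative first exon supplies 153 coding bases in place of the 9 of Dbi-201, before the 252 coding bases that both share. Dbi-202 starts inside intron 1 and its annotated coding sequence begins at the second ATG printed above.

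Star had the largest share, among the 4 members, of reads that do not carry a full intron chain. Incomplete splice matches and unspliced genomic models, called truncated here whatever the state of the molecule, held 1111 of 4829 Star reads in replicate 1 and 1278 of 4617 in replicate 2. These were 23.0% (95% Wilson interval 21.8% to 24.2%) in replicate 1 and 27.7% (26.4% to 29.0%) in replicate 2. Replicate 1 was lower by 4.67 percentage points, and Fisher's exact test passed (adjusted p = 7.07e-05). Of the 6033 genes tested, 1.21% passed, 6 of them higher in replicate 1 and 67 higher in replicate 2. The median over these genes was 9.62% in replicate 1 and 12.2% in replicate 2, and the Star share was above that of 79.6% and 78.8% of genes. Tspo had 27 truncated reads of 448 in replicate 1 and 56 of 505 in replicate 2, or 6.03% and 11.1% (adjusted p = 0.200 by Fisher's exact test). Dbi had 8 and 17 such reads, or 0.697% in replicate 1 and 1.01% in replicate 2, and Acbd3 had 1 and 2.

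The share of reads that splice each intron was uneven along Star. Unspliced reads lower it at every intron, and a junction that a read lacks does not show where the read began. In replicate 1, introns 1 to 3 of Star were spliced in 78.2%, 80.6% and 80.7% of its reads, and introns 4 to 6 in 90.0%, 90.3% and 88.9%. In replicate 2 the shares were 73.7%, 75.5% and 75.5% for introns 1 to 3, and 85.4%, 85.6% and 84.6% for introns 4 to 6. Both libraries thus had a step between introns 3 and 4 that was wider than the intervals of either share. It goes with the largest unannotated Star model, a chain of introns 4 to 6 drawn from the first base of exon 4, which had 414 reads in replicate 1 (8.57% of Star reads) and 421 reads in replicate 2 (9.12%). Exons 4 to 7 hold 549 of the 852 coding bases. No annotated Star start lies there, and the cause of the step was not tested.

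The other members had flatter profiles. In Tspo the share was higher toward the 3′ end in both libraries, with 93.3%, 96.4% and 96.7% of reads splicing introns 1 to 3 in replicate 1, and 87.7%, 91.7% and 94.1% in replicate 2. In Dbi every intron was spliced in 97.6% to 99.4% of reads in both libraries. In Acbd3, a gene of 7 introns and a transcript of 3471 bases, the shares lay between 93.7% and 98.4% in replicate 1 and between 95.5% and 97.7% in replicate 2, on 63 and 44 reads. The 95% Wilson intervals of Acbd3 were wide, for example 84.8% to 97.5% for intron 5 in replicate 1. A step of the size seen in Star was thus not resolved in Acbd3.

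**Figure D2:**
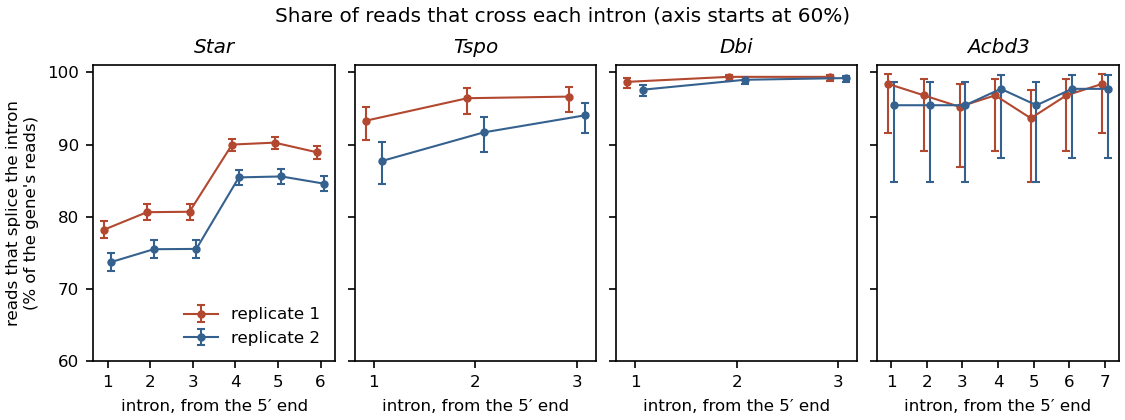
Share of each gene's reads (%) that splice each intron of its main transcript, from the 5′ to the 3′ end, in replicate 1 and replicate 2, with 95% Wilson intervals; the axis starts at 60%. Star steps up between introns 3 and 4 in both libraries, for example 80.7% against 90.0% in replicate 1.

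The Star models in detail were the annotated form, 7 spliced or unspliced partial models of at least 30 reads in each library, and many of few reads. Of 55 models in replicate 1 and 63 in replicate 2, 21 and 31 rested on a single read. A chain of introns 2 to 6 had 108 reads in replicate 1 and 90 in replicate 2. In replicate 1 it was drawn from the annotated start through an unspliced intron 1, and in replicate 2 it was drawn from the start of exon 2. A chain of introns 1 to 5 had 58 reads in replicate 1 and 45 in replicate 2, and ran from exon 6 into intron 6. A chain of introns 5 and 6 had 41 and 37 reads.

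Unspliced Star reads lay mostly in the last exon. They numbered 421 in replicate 1 (8.72%, 95% Wilson interval 7.95% to 9.55%) and 598 in replicate 2 (13.0%, 12.01% to 14.0%). Most frequent was a model of 796 bases with 236 reads in replicate 1, and its counterpart of 794 bases with 313 reads in replicate 2. Both were drawn from a base inside intron 6, 264 bases before the last coding base. It is the base at which a rare acceptor 154 bases before exon 7, with 7 reads in replicate 1 and 5 in replicate 2, begins its exon. Drawn starts, like drawn ends, are given once per model. Of 32 unannotated Star chains found in both libraries, 6 had drawn starts more than 100 bases apart. Where the unspliced reads truly began is therefore not seen. The deposited classes put the model of replicate 1 among genomic models and that of replicate 2 among incomplete splice matches, which is why both classes were counted together. Farther on, replicate 1 had 119 reads in a model of 1053 bases and 56 in a model of 834 bases, while replicate 2 had 248 reads in a single model of 1864 bases over nearly the same stretch. A model without any intron from the annotated start into intron 6 had 9 reads in replicate 1 and 31 reads in replicate 2.

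**Figure D3:**
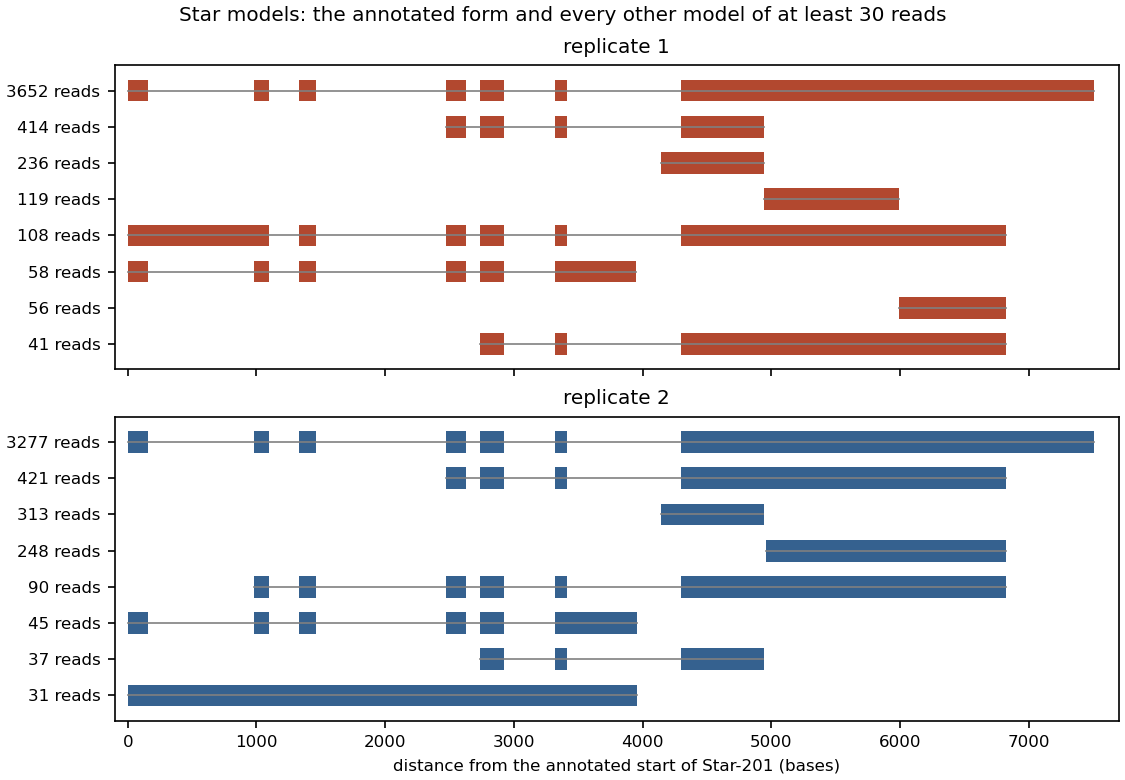
Exons (boxes) and introns (lines) of Star-201 and of every other Star model with at least 30 reads in a library, replicate 1 above and replicate 2 below, against distance in bases from the annotated start. The top row of each panel is the annotated form with 3652 and 3277 reads, and the chain that starts at exon 4 has 414 and 421 reads but is drawn to different ends.

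The 3′ ends of Star models fell on a few positions of the last exon, which has 3210 bases of which only 111 are coding. All known models in the files carry the annotated exons and ends (20927 of 20927 in replicate 1 and 20410 of 20410 in replicate 2), so the true ends of the 3652 and 3277 reads of Star-201 are not seen. Only the drawn ends of the other Star models, with 1177 reads in replicate 1 and 1340 in replicate 2, could be read. Models ending 531 bases (replicate 1) or 529 bases (replicate 2) after the last coding base held 677 reads in replicate 1 (57.5%, 95% Wilson interval 54.7% to 60.3%) and 401 reads in replicate 2 (29.9%, 27.5% to 32.4%). Models ending 2416 bases after it held 248 reads in replicate 1 (21.1%, 18.8% to 23.5%) and 777 reads in replicate 2 (58.0%, 55.3% to 60.6%). A spliced Star transcript would measure 1478 or 1476 bases to the nearer of these ends, 3363 bases to the farther one and 4046 bases to the annotated end.

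AATAAA began 20 bases before the end at 531 bases, counting the end base itself, and 18 bases before the end at 529 bases, and it is the same hexamer in both libraries. It began 22 bases before the end at 2416 bases, and ATTAAA began 24 bases before the annotated end at 3099 bases. The end at 1583 bases had 119 reads in replicate 1, all in 1 unspliced model, and 20 in replicate 2, all spliced. Of the latter, 17 were a chain of intron 6 that had 12 reads in replicate 1, drawn there to 531 bases. No hexamer lay in the 50 bases before the end at 1583 bases, although an AATAAA began past it, at 1597 bases. Of the 20 bases after that end, 17 are A, against 5 or 6 at the ends at 529 to 531 and 2416 bases. An end at 2078 bases had 21 reads in replicate 1, all in 1 spliced model, and 0 of 1340 in replicate 2. The same chain of 4 introns had 19 reads in replicate 2, drawn there to 529 bases. The end at 2078 bases had no hexamer and 8 A in the next 20 bases. Whether any of these ends arose from priming inside the transcript was not tested.

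The split between the 2 main ends was not a measured share of reads, because each model has a single drawn end for all its reads. The chain of introns 4 to 6 ended at 531 bases with its 414 reads in replicate 1, and at 2416 bases with its 421 reads in replicate 2. Without that chain, the near end held 263 of 763 reads in replicate 1 (34.5%, 95% Wilson interval 31.2% to 37.9%) and 401 of 919 in replicate 2 (43.6%, 40.5% to 46.9%). The far end then held 248 reads in replicate 1 (32.5%, 29.3% to 35.9%) and 356 reads in replicate 2 (38.7%, 35.6% to 41.9%), so that the order of the libraries turned for the near end. Of 32 unannotated Star chains found in both libraries, 15 had drawn ends more than 100 bases apart. Only the drawn positions can be read from these models, and not how often each was used or whether each is a true transcript end. Several ends also served as drawn starts of other models: those at 531 and 1583 bases in replicate 1, and that at 2416 bases in both libraries, where a model from there to the annotated end had 1 read in replicate 1 and 6 reads in replicate 2.

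**Figure D4:**
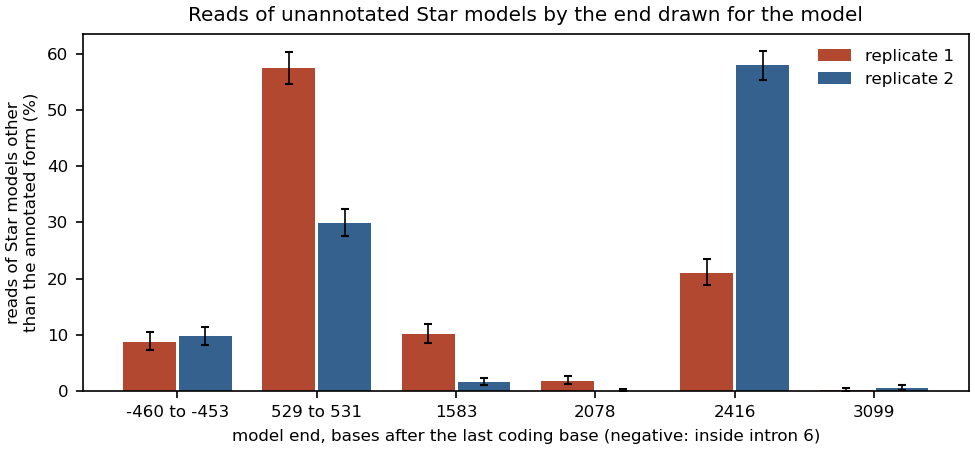
Reads of Star models other than the annotated form (%), by the end drawn for the model in bases after the last coding base, in replicate 1 (left bars) and replicate 2 (right bars), with 95% Wilson intervals. The ends at 529 to 531 and at 2416 bases hold most reads in both libraries, 57.5% and 21.1% in replicate 1 and 29.9% and 58.0% in replicate 2, and the split follows the drawn end of the largest chain.

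Another group of models ended inside intron 6, 540 bases into it in replicate 1 and 547 bases in replicate 2. It had 102 reads in 14 models in replicate 1 (8.67% of the reads outside Star-201, 95% Wilson interval 7.19% to 10.4%) and 130 reads in 18 models in replicate 2 (9.70%, 8.23% to 11.4%). The libraries were close for this group. Of these reads, 93 in replicate 1 and 99 in replicate 2 had at least 1 intron spliced. These models stop before exon 7 and so lack its 111 coding bases, printed above. The intronic bases around the end were not analysed here.

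Splice sites outside the annotation were rare in Star. The acceptor 3 bases into exon 4, which removes a whole codon, had 10 reads in replicate 1 and 12 in replicate 2, or 0.256% and 0.343% of the reads that splice intron 3 at its annotated donor to either acceptor. The acceptor 9 bases into exon 5, which removes 3 codons, had 3 reads in each library. The acceptor 2 bases into exon 6, which shifts the frame, had 9 and 7 reads, or 0.206% in replicate 1 and 0.177% in replicate 2. A donor 4 bases past the end of exon 3 had 5 and 4 reads, and an acceptor 154 bases before exon 7 had 7 and 5. In all, 37 junctions of Star reads lay outside Star-201, of which 13 occurred in both libraries. A junction from exon 6 to a site 9935 bases past the start of exon 7 had 5 reads in replicate 1 and 1 read in replicate 2.

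The partial models of Tspo were few. A model of the last exon alone had 11 reads in replicate 1 and 29 in replicate 2, the chain of introns 2 and 3 had 11 and 16, and that of intron 3 had 5 and 11. All Tspo models shared the annotated end, where AATAAA began 26 bases before it. An extra exon inside intron 3, at chr15:83573553-83573670, was present in 4 reads in replicate 1 and 1 read in replicate 2. Dbi models ended at or within 120 bases of the annotated end, except Dbi-205, an annotated retained-intron form. Unannotated Dbi models ended 10 bases short of the annotated end, and ATTAAA began 24 bases before that point. The last exon of Dbi alone had 4 reads in replicate 1 and 11 in replicate 2. Neither hexamer lay in the last 50 bases of the main Acbd3 transcript, and 3 Acbd3 models ended elsewhere in its exons with 1 read each.

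A processed pseudogene of Dbi, Gm12222, was the single annotated transcript of another gene with at least 100 bases at 80% identity or more to a main transcript. It matched Dbi-201 over 261 bases at 93.9% identity and had 0 reads in both libraries. Mcat overlaps the start of Tspo and Gm37768 overlaps Acbd3 on the opposite strand, and how the reads were given a strand is not stated in the sources used here.

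Around these 4 genes, 56 genes in 5 lists were examined, and of the 50 tested, 7 were higher in replicate 1 and 2 higher in replicate 2. These are 14.0% and 4.0% of the tested listed genes, against 4.81% and 4.35% of all genes tested. The lists were chosen with earlier results of these data known, and the genes were not matched on level. A counting test passes smaller differences in genes with more reads, so these shares, here and by list below, are descriptions only. With TMM scaling 3 listed genes were higher in replicate 1 and 5 in replicate 2, beside 1.85% and 6.08% of all genes, and with DESeq2 size factors 4 and 5, beside 2.34% and 5.47%. The first list held START-domain relatives of Star together with Stard3nl, which resembles the membrane-anchoring part of Stard3 and has no START domain. Of its 14 genes, 11 were tested, with 1 call in each direction and a median log2 ratio of 0.15. Stard10, a phospholipid transfer protein, had 18 reads in replicate 1 and 112 in replicate 2, a ratio of 0.164 (95% exact interval 0.0938 to 0.271; adjusted p = 2.43e-15 by the exact binomial test). It was low in replicate 1, the library with few hepatocyte marker reads, and the part of those cells was not tested. Stard7, a mitochondrial phosphatidylcholine carrier, had 279 reads in replicate 1 and 200 in replicate 2, a ratio of 1.42 (adjusted p = 0.00328), and was not called with TMM scaling. The highest gene of this list, Stard7, reached 289 CPM (replicate 1) and 203 CPM (replicate 2), far below Star. Stard3nl, a late-endosomal protein, had 49 reads in replicate 1 and 37 in replicate 2.

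Of 11 genes listed as partners at the mitochondrial membranes, among them the cytosolic chaperone Hsp90ab1, all were tested and 1 was called. Atad3a, an inner-membrane ATPase, had 227 reads in replicate 1 and 143 in replicate 2, a ratio of 1.62 (adjusted p = 1.85e-04 by the exact binomial test). The adenine nucleotide carriers Slc25a5, at 2139 CPM (replicate 1) and 2173 CPM (replicate 2), and Slc25a4, at 756 and 728 CPM, and the chaperone Hsp90ab1, at 1132 and 1109 CPM, were the most abundant. None of the 3 was called, although Slc25a5 passed as lower in replicate 1 with TMM scaling (ratio 0.881) and DESeq2 size factors (ratio 0.909). Among 7 acyl-CoA binding genes and Tspo paralogs, 4 were tested and 1 was called. Eci2, an enoyl-CoA isomerase with an acyl-CoA binding domain, had 219 reads in replicate 1 and 164 in replicate 2 (ratio 1.36, adjusted p = 0.0365), and kept its call in 2 of 7 alternatives, ERCC scaling (adjusted p = 0.0107) and totals without hepatocyte markers (adjusted p = 0.0491). The other 5 gave ratios from 1.19 to 1.36 with adjusted p-values from 0.0595 to 0.550. Tspo2, the paralog of Tspo, had 1 read in replicate 1 and 2 reads in replicate 2, and Dbil5 and Acbd7 had 0 in both. Acbd4 had 58 reads in replicate 1 and 60 in replicate 2, and Acbd5 had 61 and 49, close to Acbd3.

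Of 16 genes that act on the Star message, its protein or its signal, all were tested, 3 were higher in replicate 1 and none in replicate 2, against 4.81% and 4.35% of all genes tested. Lonp1, the matrix protease that degrades imported Star protein, had 1098 reads in replicate 1 and 822 in replicate 2, a ratio of 1.36 (95% exact interval 1.24 to 1.49; adjusted p = 1.07e-09 by the exact binomial test). Prkar1a, a regulatory subunit of protein kinase A, had 691 reads in replicate 1 and 592 in replicate 2 (ratio 1.19, adjusted p = 0.0246). Acsl4, an arachidonate-preferring acyl-CoA synthetase, had 118 and 75 reads (ratio 1.61, adjusted p = 0.0212). Neither Prkar1a nor Acsl4 was called with TMM scaling, DESeq2 size factors, known models only (adjusted p = 0.142 and 0.259) or full-splice reads only (adjusted p = 0.170 and 0.255), and the Prkar1a call was also lost without hepatocyte markers in the totals (adjusted p = 0.0506). Each kept a ratio above 1 in all 7 alternatives. Phb, a prohibitin of the inner membrane, reached 635 CPM (replicate 1) and 573 CPM (replicate 2). The median log2 ratio of this list was 0.28, against 0.15 over all tested genes.

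Of 8 genes that deliver cholesterol or cleave its side chain, all were tested, with 1 call in each direction. Scarb1, the receptor that takes up cholesterol esters from lipoproteins, had 1323 reads in replicate 1 and 870 in replicate 2, a ratio of 1.55 (adjusted p = 4.09e-22 by the exact binomial test). Cyp11a1, the side-chain cleavage enzyme that receives the imported cholesterol, had 15057 reads in replicate 1 and 17887 in replicate 2, a ratio of 0.859 (adjusted p = 2.36e-40). Counted from known models only, the Cyp11a1 ratio was 1.02 (adjusted p = 0.560), on the other side of 1. Fdx1, the ferredoxin that passes electrons to that enzyme, reached 1425 CPM (replicate 1) and 1503 CPM (replicate 2) and was not called, although it passed as lower in replicate 1 with TMM scaling (ratio 0.849) and DESeq2 size factors (ratio 0.875).

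**Figure D5:**
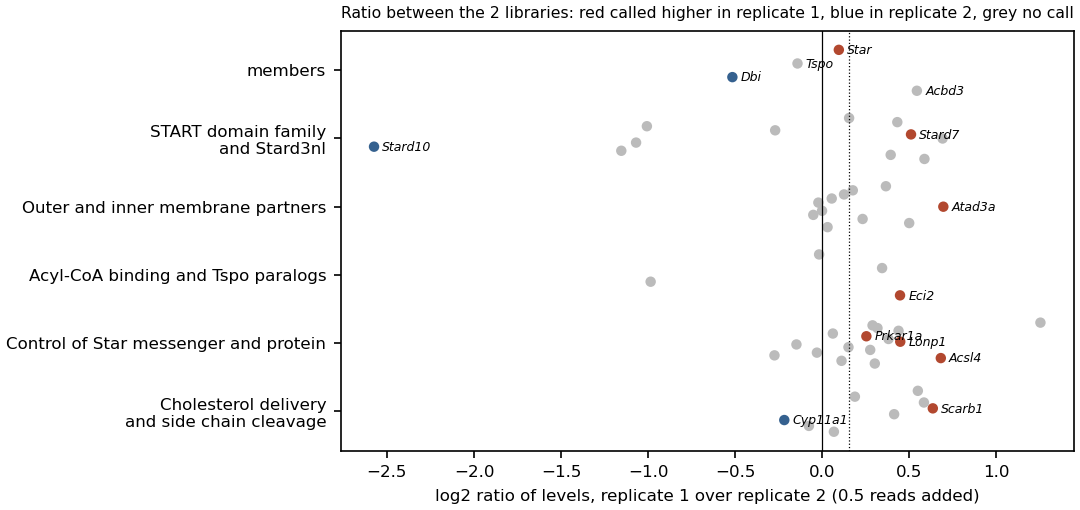
Log2 ratio of levels, replicate 1 over replicate 2, for the 4 members and the tested genes of the 5 lists, each point a gene; red marks genes called higher in replicate 1, blue in replicate 2 and grey no call, and the dotted line is the median of all tested genes, 0.15. Dbi at -0.52 and Stard10 lie farthest to the left among called genes, and Acbd3 at 0.54 is not called; Star falls left of 0 with TMM scaling or DESeq2 size factors.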

How the data were processed

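The deposited values were read counts per transcript model, whole numbers that the authors did not normalize, with 1 table and 1 annotation for each library. Per the file headers and accompanying description, alignment was to mm10 with GENCODE M21 as annotation, and TALON, which classes reads by intron chain, is named. The sources used here name no aligner, version or filter. Model positions came from the deposited annotations. The members and lists were chosen with earlier results of these data known.

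Counts were summed over all models of a gene. Genes with 10 or more reads in the 2 libraries together were tested with two-sided exact binomial tests. Top-form shares (chains classed as truncated in either library left out) and truncated shares were tested with two-sided Fisher's exact tests on genes with at least 20 reads in each library. For top-form shares these were full-splice reads, and genes with a single form were left out. All p-values were adjusted by Benjamini-Hochberg over all genes tested (threshold 0.05, scipy 1.17.1). Scalings came from edgeR 4.0.16 and DESeq2 1.42.0. With each library as its own side of the comparison, no residual degrees of freedom were left for edgeR's test. Scripts were tested on simulated data. ERCC reads were 1.72% and 1.79% of reads. Named were all members, called listed genes, the 3 highest of each list, and for each member the 3 nearest genes. Models of at least 5 reads over both libraries numbered 25 for Star and 5 for Dbi, and not all of these are described. Junctions of fewer reads were named after their values were seen. Protein sequences were not used here. Intervals cover counting error only.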

Additional observations from a re-analysis of the deposited data

Results flagged for a closer look

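Reads in unannotated models on the strand opposite to Star numbered 23 in replicate 1 and 37 in replicate 2, above the 3 reads that a count of 0 allows, and no comparison used them. Most lay in a model without introns, with 22 reads at chr8:25811222-25813414 in replicate 1 and 33 reads at chr8:25811883-25813412 in replicate 2. In each library its bound at the 3′ side of Star was the position that also ended Star models on the plus strand.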

How the results depend on the processing

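The Dbi call held under all 7 alternatives, with ratios from 0.626 to 0.728, and the Star truncated share passed in all 3 of its own. Star turned to 0.956 and 0.986 with TMM scaling and DESeq2 size factors and was 1.05 without hepatocyte markers in the totals; its call held with ERCC scaling (1.11), known models (1.09), full-splice reads (1.08) and every gene with at least 1 read (1.07). Tspo passed at 0.811 with TMM scaling. Genes called higher in replicate 1 numbered 205 (TMM) and 260 (DESeq2), against 534. Listed genes numbered 3 and 4 higher in replicate 1 and 5 and 5 higher in replicate 2 with these scalings, and 4 higher in replicate 1 with known models or with full-splice reads only. Counting single-exon models as truncated left 40 called genes, against 73. With models of at least 2 reads, the differences in top-form share turned to -0.14 points (Star) and -0.0722 points (Tspo), against 0.16 and 0.12, all uncalled. Known models alone gave no top-form value for Star, Tspo or Acbd3, which then had a single form. Among listed genes, ratios turned for Slc25a4 (0.929 with TMM, 0.959 with DESeq2), Hsp90ab1 (0.914, 0.943), Phb (0.993 with TMM), Slc25a5 (1.03 with ERCC scaling, 1.07 and 1.05 with known and full-splice reads), Acbd4 (1.03 with ERCC scaling) and Cyp11a1 (1.02 and 1.02 with known and full-splice reads). The cause of these changes was not tested. Leaving the largest Star chain out was chosen after seeing the data. Levels without a replicate are the values of the other library and show nothing of stability. No paired analysis was possible because there is a single group.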
